A study of Mus musculus with 10 samples.

Results

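The 9 myelin genes Mbp, Mog, Mag, Mobp, Cnp, Mal, Cldn11, Opalin and Ermn, were followed through single-cell transcriptomes of the medial prefrontal cortex of the mouse. They were taken by symbol from the gene list of every library, and all 9 were found among the 30406 genes that the libraries shared. The tissue came from male C57BL/6N mice over 2 months old that had been ranked by the tube test, a contest for a narrow passage lost by the mouse that backs out. The study compared rank 1 (dominant) with rank 4 (subordinate) mice, with 5 libraries per rank. All mice were of 1 strain with no allele or agent named in the labels, and 2 or 3 mice went into each library, which was therefore the replicate. Papain freed the cells for droplet capture (10x Genomics), so only oligodendrocytes that came through the dissociation were counted.

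The measure was the unique molecular identifier (UMI), 1 count per captured RNA molecule. Libraries held 4442750 to 29278466 UMIs over 1838 to 15826 barcodes, and 46287 of 64937 barcodes were kept as cells. Replicates 1 to 3 of both ranks carried the header version 3.1.0 and replicates 4 and 5 the version 4.0.0. Libraries of the same version shared at most 104 barcodes, which was 1.70% of the smaller library, and libraries of different versions at most 4. Cells were clustered and the clusters named from other markers with the 9 genes left out, so none of the 9 shaped the classes. Names stand for cells resembling a class. The 2299 cells called oligodendrocytes carried a summed 23179 to 86252 CPM (UMIs of a gene or list scaled to 1000000 UMIs of the class in the library) of their 10 marker genes per library, against 22.5 to 89.6 CPM of the 7 precursor markers. Markers of other cells were also present in them, at up to 3826 summed CPM per library for haemoglobin, 1782 for astrocytes, 1437 for excitatory neurons and 1207 for microglia, and their part in the results was not tested.

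Myelin is the stack of membrane that oligodendrocytes wrap around axons. In the adult cortex oligodendrocyte precursors still divide, leave the cycle as committed precursors, pass through a myelin-forming stage and become mature oligodendrocytes. The genes followed here cover the parts of the sheath. Mbp (myelin basic protein) and Mobp (myelin-associated oligodendrocyte basic protein) encode basic proteins on the cytoplasmic faces of compact myelin, and Cnp encodes a cyclic nucleotide phosphodiesterase of the non-compact, cytoplasm-filled channels. Mag and Mog encode surface proteins of the immunoglobulin superfamily, Mag facing the axon and Mog on the outermost layer. Cldn11 encodes the claudin of the tight junctions between myelin layers, Mal a proteolipid that sorts membrane cargo, Opalin a membrane glycoprotein of oligodendrocytes, and Ermn the actin-binding protein ermin.

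On the GRCm38 build with the GENCODE M21 annotation the genes lie on 8 chromosomes, Mal and Ermn sharing chromosome 2. Mbp spans chr18:82475146-82585637 on the plus strand and has 16 annotated transcripts, and Cnp spans chr11:100574904-100591729 on the plus strand. Mag lies at chr7:30899176-30914873, Mog at chr17:37010743-37023398, Mal at chr2:127633226-127656695, Ermn at chr2:58045113-58052864 and Opalin at chr19:41061710-41077113, all on the minus strand. Mobp lies at chr9:120149707-120181484 and Cldn11 at chr3:31149920-31164324, both on the plus strand. All are protein-coding.

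On the opposite strand Cnp overlaps the protein-coding gene Dnajc7 and Ermn overlaps Galnt5, and Mbp and Mog overlap a pseudogene (Rpl21-ps8) and a small RNA gene (Gm22388). Their UMIs therefore depend on the authors' counting by strand, which was not given in the sources used here. Mobp overlaps the transcript Gm38642 on its own strand, and reads from the shared part cannot be told apart.

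RefSeq promoter windows (GRCm38.p6) matched 8 of the 9 genes in 10 windows, Mag having 3. The 250 bases before the start are shown for Cnp, Mag, Mobp and Opalin, the genes whose windows held a match to 1 of the motifs searched (for Mag, the first window). Capitals mark matches, on either strand, to CTGGCAC, a form of the site of the transcription factor Myrf, or to ACAAAG, the core bound by Sox factors (CTTTGT on the other strand). The motifs do not overlap each other in these windows.
Cnp, chr11:100574689-100574938, plus strand: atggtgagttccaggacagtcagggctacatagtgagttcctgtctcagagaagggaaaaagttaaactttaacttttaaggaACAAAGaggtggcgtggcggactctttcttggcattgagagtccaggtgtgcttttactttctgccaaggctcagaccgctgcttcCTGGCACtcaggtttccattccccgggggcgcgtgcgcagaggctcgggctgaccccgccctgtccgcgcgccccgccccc
Mag, chr7:30914864-30915113, minus strand: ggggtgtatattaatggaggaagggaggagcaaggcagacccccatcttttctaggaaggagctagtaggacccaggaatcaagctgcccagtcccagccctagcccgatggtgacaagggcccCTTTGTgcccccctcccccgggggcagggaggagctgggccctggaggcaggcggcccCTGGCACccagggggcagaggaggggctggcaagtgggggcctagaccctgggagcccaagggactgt
Mobp, chr9:120149492-120149741, plus strand: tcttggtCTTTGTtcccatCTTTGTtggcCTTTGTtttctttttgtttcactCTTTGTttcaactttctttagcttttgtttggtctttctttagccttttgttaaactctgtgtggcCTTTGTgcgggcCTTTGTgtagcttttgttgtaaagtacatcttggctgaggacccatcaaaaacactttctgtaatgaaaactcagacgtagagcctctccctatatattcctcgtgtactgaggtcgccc
Opalin, chr19:41077114-41077363, minus strand: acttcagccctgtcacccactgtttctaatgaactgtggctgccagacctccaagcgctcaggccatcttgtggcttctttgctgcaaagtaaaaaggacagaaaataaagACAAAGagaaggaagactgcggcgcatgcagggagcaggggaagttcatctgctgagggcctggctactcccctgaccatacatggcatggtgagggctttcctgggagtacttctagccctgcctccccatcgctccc
CTGGCAC was found in the windows of 2 of the 8 genes, Cnp and Mag (3 of the 10 windows), and in 4.19% of all 32851 windows of the same length. ACAAAG was found in 4 of the 8 genes, Cnp, Mag, Mobp and Opalin (5 of the 10 windows), and in 16.5% of all windows, and the window of Mobp held 6 copies. The E-box CAGCTG, searched likewise, was found in 0 of the 8 genes and in 13% of all windows. Mog, Mal, Cldn11 and Ermn held none of the 3 motifs in these windows. These matches describe letters in the windows and say nothing of binding.

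All 9 genes had their highest mean level of the 12 named cell classes in oligodendrocytes. For each gene, the lowest oligodendrocyte library lay above the highest library of any of the 9 classes outside the lineage. For Mbp these 2 values were 3414 and 979 CPM, and for Mog 686 and 76.8 CPM. The committed precursors came second for every gene except Mal, for which endothelial cells came second. The levels are a description, since the genes are known for this pattern. Outside the lineage the order of the classes was not resolved for Mbp, whose class means ran from 72.3 CPM in perivascular macrophages (2 libraries) to 303 ± 314 CPM (SD, n = 10) in pericytes, and whose ranges over libraries overlapped.

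**Figure D1:**
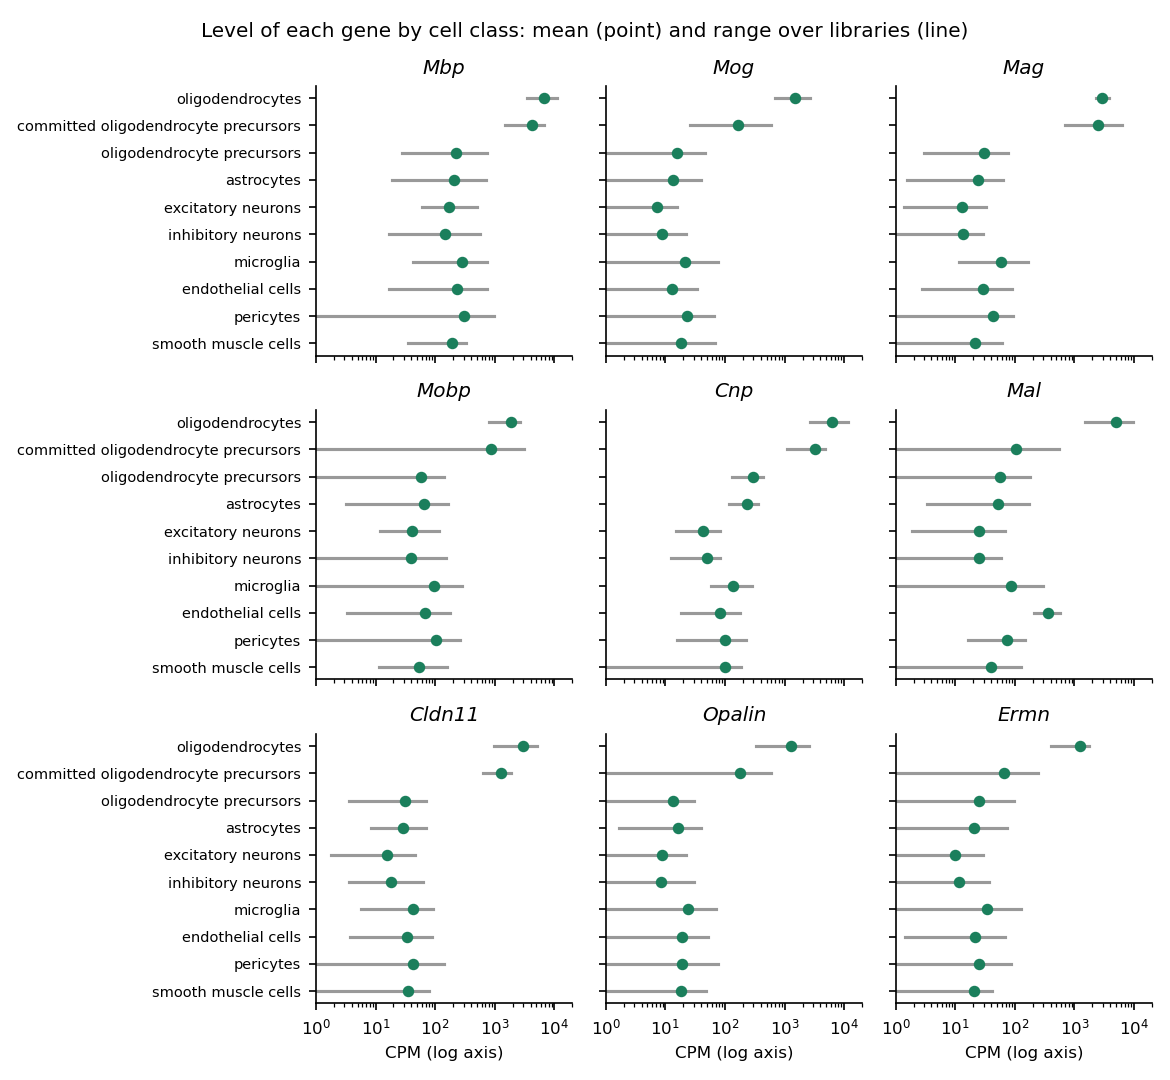
Level of each of the 9 genes by cell class, in CPM on a log axis, with the mean over libraries as a point and the lowest to highest library as a line (values under 1 CPM are drawn at 1). Each gene peaks in oligodendrocytes, Cnp is raised in oligodendrocyte precursors and astrocytes next to neurons, and Mal in endothelial cells.

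At the level of single cells the 9 genes were found together. When every cell was thinned to 1000 UMIs, a fixed depth that left out 562 of the oligodendrocytes, the remaining 1737 held a median of 7 of the 9 genes and 0 cells held none, which allows a share of up to 0.173%. In excitatory neurons the median was 0 and 65.0% of 14643 cells held none. At this depth 96.4% of oligodendrocytes had a UMI of Mbp (exact 95% binomial interval 95.4% to 97.2%), 92.5% one of Mal and 49.3% one of Opalin. Intervals of this kind cover counting error only.

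The libraries differed widely in the oligodendrocytes. In rank 1 replicates 1 to 5 the Mbp level was 3668, 9175, 10686, 5865 and 4015 CPM, and in rank 4 it was 4468, 11233, 10890, 4093 and 3414 CPM. Replicates 2 and 3 of both ranks were high and the other replicates low, and the ranks overlapped.
The Cnp level was 3520, 11671, 10995, 3251 and 2665 CPM in rank 1 and 4351, 11152, 9702, 3002 and 2926 CPM in rank 4, with the same replicates high. Cldn11 stood at 2737, 5015, 4098, 1548 and 1250 CPM in rank 1 and at 4230, 5024, 3976, 1129 and 969 CPM in rank 4. Here replicates 4 and 5 held the 4 lowest values.
Mal went the other way, with 1475, 4295, 3603, 9444 and 6787 CPM in rank 1 and 3468, 3794, 3120, 6910 and 7234 CPM in rank 4, so that replicates 4 and 5 held the 4 highest values. Mag, the axon-facing adhesion protein, varied least, between 2297 and 3747 CPM (2926 ± 497, SD, n = 10). The other 4 genes ranged over 686 to 2653 CPM (Mog), 789 to 2637 CPM (Mobp), 331 to 2608 CPM (Opalin) and 410 to 1740 CPM (Ermn). For these 4 genes the lowest library was rank 1 replicate 1.

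**Figure D2:**
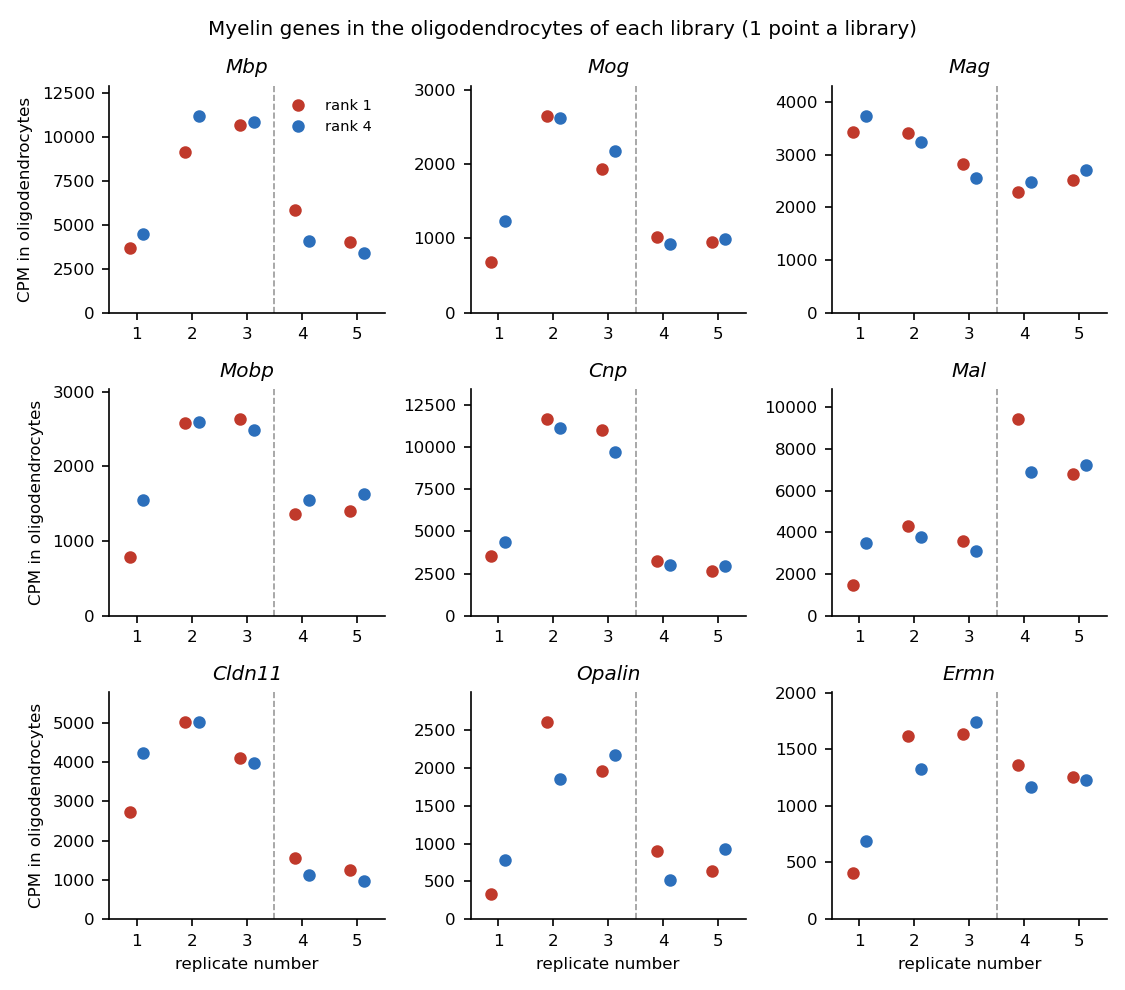
CPM of each gene in the oligodendrocytes of each library by replicate number, rank 1 in red and rank 4 in blue, with a dashed line between header versions 3.1.0 (left) and 4.0.0 (right). The replicate 1 libraries of the 2 ranks lie apart for several genes (Mal 1475 and 3468 CPM, Opalin 331 and 787 CPM), while Cnp and Cldn11 are lower and Mal higher right of the line.

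The 2 header versions were compared in a test chosen after these values had been seen. In edgeR's quasi-likelihood test with Benjamini-Hochberg adjustment over all genes, with rank in the model, 4 of the 9 genes passed an adjusted p of 0.05 in oligodendrocytes, where 36% of the 4422 genes tested passed. Mal was higher in version 4.0.0 by 1.22 on the log2 scale (SE 0.31, adjusted p = 0.00972). Cldn11 fell by 1.77 (SE 0.29, adjusted p = 0.00121), Cnp fell by 1.52 (SE 0.38, adjusted p = 0.00903) and Mog fell by 0.94 (SE 0.34, adjusted p = 0.0437). The log2 differences were -0.93 for Mbp, -1.10 for Opalin, -0.50 for Mobp, -0.37 for Mag and 0.03 for Ermn, with adjusted p between 0.0687 and 0.948 in the same edgeR test. Leaving out rank 1 replicate 1 brought the count to 7 of 9 by adding Mbp, Mobp and Opalin, as did leaving out both replicates 1; over all genes 48.6% and 63.5% passed in these fits. Mog missed the threshold in 7 of the 10 fits that left out 1 library, and Mal missed it without rank 1 replicate 4 (0.93, adjusted p = 0.0540).
Leaving out rank 4 replicate 1 brought the count to 6 of 9, with 41.9% of all genes.
Mal was higher in version 4.0.0 in each of the 5 other classes tested, by 2.46 on the log2 scale in microglia (adjusted p = 0.0158), 2.23 in oligodendrocyte precursors (adjusted p = 0.00171), 2.16 in astrocytes (adjusted p = 0.00883), 1.88 in excitatory neurons (adjusted p = 0.0402) and 0.89 in endothelial cells (adjusted p = 0.00421), by edgeR. Among all genes tested 35.1%, 40.2%, 43.9%, 51.5% and 23.3% passed in these classes. Mag was higher in precursors (1.24) and astrocytes (1.77), Ermn in astrocytes (1.88) and microglia (1.85), and Cnp fell by 0.80 in astrocytes, all past an adjusted p of 0.05 in edgeR. No other of the 9 genes passed outside the oligodendrocytes. Software version, gene list and whatever else differed between replicates 1 to 3 and replicates 4 and 5 cannot be told apart.

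Within the lineage the levels of the 9 genes were compared between stages. The lineage cells were clustered again without the 9 genes into 2595 precursors, 59 cycling precursors, 283 committed precursors, 123 myelin-forming oligodendrocytes and 1992 mature oligodendrocytes, while 830 cells stayed unnamed. Of the unnamed cells, 524 scored best as precursors but too low for a name. Another 219 were led by pericyte markers (Vtn, Rgs5, Abcc9) and 87 by Meg3, Snhg11 and Grin2b, genes of neurons. All 830 stayed in the lineage classes used for class levels, rank tests and shares of the lineage. The mature cells were named from markers that include Apod and Ptgds, but in 498 of them the leading genes held Klk6, a marker of another mature type, and not Ptgds, so both types may be among them. Libraries with at least 20 cells of a stage were used, and each level was set against the mature cells of the same library.
In committed precursors (7 libraries), Mbp was at 65.3% of the mature level, Cnp at 49.4%, Cldn11 at 38.2% and Mag at 36.7%. Mobp was at 9.07%, Opalin at 8.07%, Mog at 4.27%, Ermn at 3.04% and Mal at 0.980%. Over single libraries the lowest values of Mbp (30.1%) and Cnp (27.0%) lay above the highest value of Mobp (21.5%), Opalin (22.6%), Mog (10.6%), Ermn (7.92%) and Mal (3.08%), whereas Mag (12.6% to 80.7%) and Cldn11 (17.7% to 60.3%) overlapped with Mobp and Opalin.
The committed precursors of the 7 libraries, in the order rank 1 replicates 1 and 5 and rank 4 replicates 1 to 5, held 1148, 3442, 1549, 4215, 7146, 4013 and 3103 CPM of Mbp. Mal stood in the same cells at 27.7, 201, 17.9, 0, 0, 28.1 and 58.7 CPM, against 1484 to 9591 CPM in mature cells over the 10 libraries. Mbp was present in every committed sample, and Mal was at or near 0 in several.
Between these extremes, Mag was at 484, 864, 457, 662, 972, 1684 and 1188 CPM and Mobp at 55.3, 278, 170, 0, 40.5, 281 and 44.0 CPM in these libraries. The committed samples held 22 to 70 cells, so a gene near 0 rests on few UMIs.
These values depend on which cells are counted as committed. The clustering of all cells had named a class of 309 committed precursors, of which 263 fell in the committed and 27 in the myelin-forming stage. Over the same 7 libraries, that class stood at 100.4% of the mature level for Mag, 84.0% for Mbp, 80.0% for Cnp, 73.1% for Cldn11, 62.3% for Mobp (up to 221%), 31.9% for Opalin and 17.9% for Mog, so the gap between Mbp or Cnp and Mobp was not seen there. Ermn (5.57%) and Mal (1.87%) were the lowest there too.

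Myelin-forming oligodendrocytes reached 20 cells in only 3 libraries, rank 1 replicate 5 and rank 4 replicates 4 and 5, all of version 4.0.0. In them 8 of the 9 genes stood above the mature cells in all 3 libraries. Mag was at 356% ± 21.1 of the mature level (SD, n = 3), at 8847, 6925 and 8346 CPM against a mean of 2254 CPM in the mature cells. Opalin was at 293% ± 114 and overlapped with Mag (189% to 415% against 332% to 372%). Mobp was at 290%, Cnp at 252%, Cldn11 at 250%, Mog at 207%, Mbp at 203% and Mal at 178%. Ermn was the exception with 59.2%, 80.2% and 68.1% of the mature level, below 100% in all 3 libraries. These cells were deeper, with a median of 2721 UMIs per cell against 1286 in mature cells. At 1000 UMIs per cell, where depth is equal, and with the cells of all libraries pooled, 98.3% of 121 myelin-forming cells and 88.6% of 1542 mature cells had a UMI of Mag, and 50.4% and 69.7% had one of Ermn. The stages drew on the libraries in unlike proportions, and these shares are not limited to the 3 libraries of the CPM values. For Mal the share was lower in the myelin-forming cells (76.9% against 92.5%) while its CPM was higher, so no order is read for Mal.

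**Figure D3:**
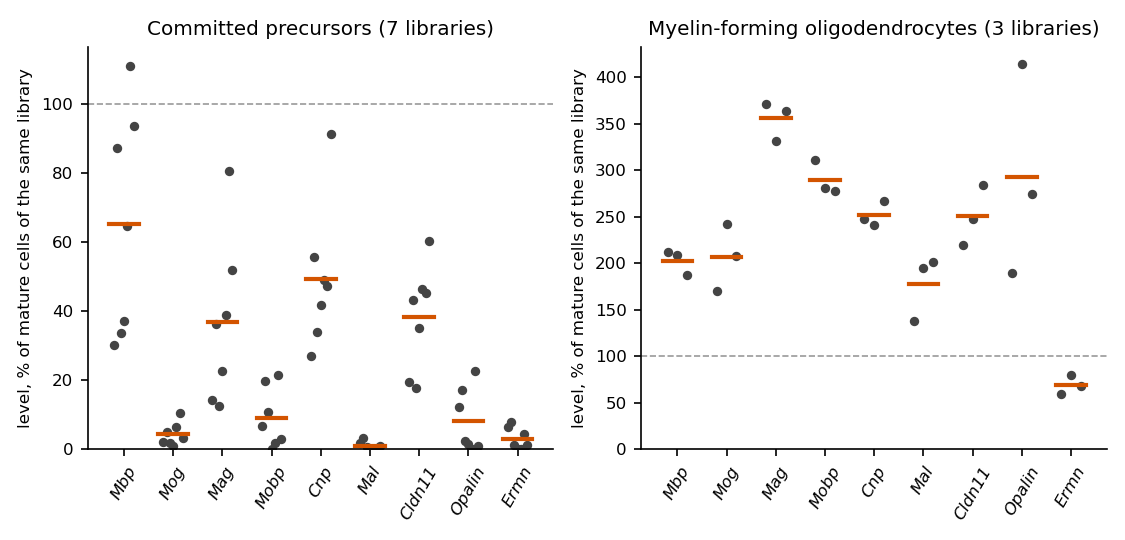
Level of each gene in committed precursors (left, 7 libraries) and myelin-forming oligodendrocytes (right, 3 libraries) as a percent of the mature oligodendrocytes of the same library; points are libraries, bars their means and the dashed line marks 100%. Mbp, Cnp, Cldn11 and Mag are already present on the left, and every gene except Ermn stands above 100% on the right.

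In the precursors themselves the 9 genes were low, with 8 of them at a mean of 1.14% to 4.78% of the mature level and Cnp at 5.84%. Cnp was at 121.6 to 520 CPM in the precursors of the 10 libraries, where Mbp ran from 36.2 to 755 CPM.
Cnp was also detected in astrocytes, at 199, 304, 359, 115 and 223 CPM in rank 1 and 147, 258, 352, 181 and 178 CPM in rank 4. Excitatory neurons held 14.8 to 83.7 CPM of Cnp. In the same astrocytes Mbp ran from 18.9 to 716 CPM, and the libraries with the most Cnp, replicates 2 and 3, were not those with the most Mbp. Replicates 2 and 3 also held the most Cnp in oligodendrocytes. The source of the Cnp UMIs in astrocytes was not tested.
At 1000 UMIs per cell, 19.7% of astrocytes (exact 95% interval 18.8% to 20.6%) and 22.9% of precursors had a UMI of Cnp, against 6.43% of excitatory neurons (6.04% to 6.84%). Unthinned shares were 30.04%, 35.7% and 15.9%, at median depths of 1503, 1623 and 2429 UMIs. Of all UMIs of the 9 genes, Cnp took 44.9% in astrocytes and 47.3% in precursors but 19.5% in oligodendrocytes and 13.5% in excitatory neurons, as means over libraries. Single libraries ran from 12.7% to 85.0% in astrocytes and from 15.4% to 86.8% in precursors, overlapping with the 12.02% to 27.2% of oligodendrocytes.

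Among the named classes outside the lineage, Mal, the membrane-sorting proteolipid, had its highest mean level in endothelial cells. Its level there was 267, 209.6, 274, 398 and 534 CPM in rank 1 and 245, 305, 216, 576 and 574 CPM in rank 4, while excitatory neurons held 1.85 to 67.4 CPM. Replicates 4 and 5 of both ranks were the highest, as they were for Mal in oligodendrocytes, and the source of these UMIs was not tested. At 1000 UMIs per cell 27.8% of 2785 endothelial cells had a UMI of Mal (exact 95% interval 26.1% to 29.5%), against 5.22% of excitatory neurons, 6.39% of astrocytes and 7.59% of pericytes. Unthinned, the shares were 37.9% in endothelial cells, at a median of 1229 UMIs, and 11.8% in excitatory neurons, at 2429 UMIs. Mal took 50.0% of the UMIs of the 9 genes in endothelial cells and 19.0% in oligodendrocytes, as means over libraries whose ranges overlapped (18.3% to 80.1% and 8.04% to 34.9%). At the same depth Mog had a UMI in 1.65% of the endothelial cells and Mbp in 22.2%. The Mbp level exceeded that of Mal in rank 1 replicate 1 (452 against 267 CPM) and rank 4 replicate 1 (740 against 245 CPM).

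Of the other 7 genes, Mbp was also found outside the lineage, with a UMI in 17.5% of excitatory neurons, 20.1% of astrocytes and 13.8% of inhibitory neurons at 1000 UMIs per cell. Unthinned, the shares were 36.1%, 28.5% and 31.4%, at median depths of 2429, 1503 and 2846 UMIs. No source of these UMIs is read from the shares. Neither transcription in these cells nor the part of free RNA was tested. The shares differed between classes beyond counting error, and the classes drew on the libraries unequally. As means over libraries, Mbp took 54.4% of the UMIs of the 9 genes in excitatory neurons and 21.6% in oligodendrocytes, and Mobp 11.7% and 6.20%. The libraries of the 2 classes did not overlap for Mbp (36.8% to 67.0% against 15.5% to 28.1%) or Mobp (9.20% to 15.2% against 4.63% to 7.38%). Mag took 3.37% and 10.9%, with overlap (1.06% to 7.46% against 6.59% to 20.2%). In endothelial cells, astrocytes and precursors Mbp took 23.2%, 25.8% and 25.1%, with libraries from 3.41% to 61.9% that overlapped with both, and in endothelial cells Mobp took 5.91%. A high Mbp share was not particular to excitatory neurons. It was 43.9% in inhibitory neurons (7 libraries), 41.1% in pericytes (6 libraries) and 37.5% in microglia (7 libraries). The inhibitory neurons did not overlap with oligodendrocytes, while pericytes and microglia did. In whole libraries Mbp took 30.8% (22.6% to 55.98%), overlapping with excitatory neurons and with oligodendrocytes.
The level differed between libraries. Excitatory neurons held 270, 60.0, 91.5, 87.4 and 190 CPM of Mbp in rank 1 and 506, 64.7, 142, 157 and 169 CPM in rank 4. Rank 4 replicate 1 was the highest library in excitatory neurons, astrocytes (716 CPM) and endothelial cells (740 CPM), and replicate 2 of both ranks was among the lowest.

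**Figure D4:**
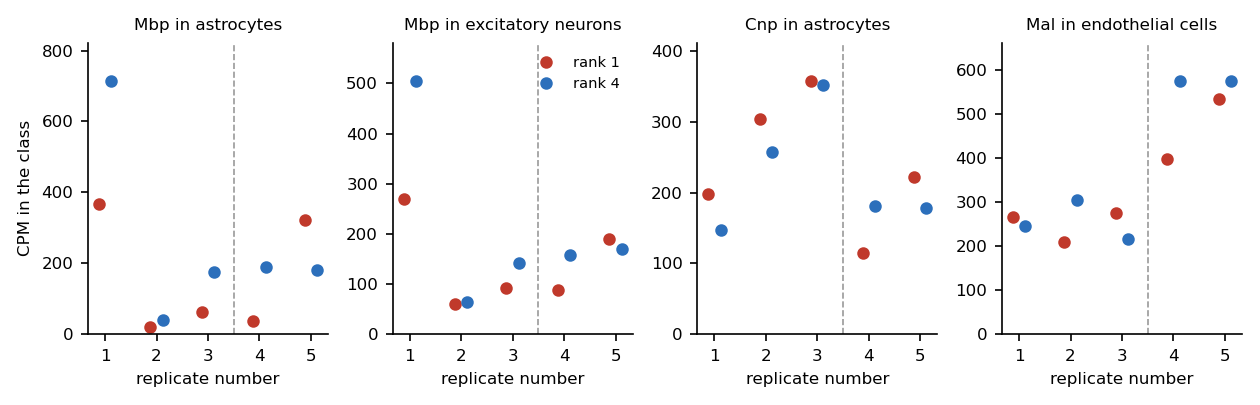
CPM of Mbp in astrocytes and excitatory neurons, of Cnp in astrocytes and of Mal in endothelial cells, 1 point per library by replicate number (rank 1 red, rank 4 blue; the dashed line divides the header versions). Mbp is highest in rank 4 replicate 1, while Cnp in astrocytes is highest in replicates 2 and 3 and Mal in endothelial cells in replicates 4 and 5. For Cnp and Mal these replicates were also the highest in oligodendrocytes.

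Across the 10 libraries, the Mbp level in a class outside the lineage was set against the Mbp UMIs in oligodendrocytes over all UMIs of the library, and no relation passed the test. Only the kept oligodendrocytes entered, which held 3.11% to 67.3% of a library's Mbp UMIs, while barcodes left out held 6.90% to 59.0%. The measure therefore missed most of the Mbp in some libraries, and the lack of a relation says little. For astrocytes Pearson's r was -0.23 (permutation p = 0.519) and Spearman's rho -0.26 (permutation p = 0.466). In excitatory neurons, endothelial cells and microglia r lay between -0.24 and -0.29, and the smallest adjusted permutation p of the 4 relations was 0.519 for r and 0.481 for rho. Without the 2 libraries farthest from the median, rank 4 replicates 2 and 3, r for astrocytes was -0.31, and within the 6 libraries of version 3.1.0 it was -0.38. The 4 libraries of version 4.0.0 were too few.

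The ranks were compared first in oligodendrocytes, to ask whether social rank went with the level of the sheath's transcripts. None of the 9 genes passed the test, and no gene did. In edgeR's quasi-likelihood test on summed counts, with header version as a covariate, 0 of the 3882 genes tested passed an adjusted p of 0.05 (0%), 54 had an unadjusted p under 0.05, and DESeq2 passed 0 of 3869. The log2 differences, rank 1 minus rank 4, ran from -0.15 for Mobp (SE 0.31) to 0.08 for Cldn11 (SE 0.27), 6 above and 3 below 0, with a median of 0.03 beside 0.00066 over all genes tested. For Mbp the difference was 0.07 (SE 0.37, 95% interval -0.72 to 0.86, lower in rank 1 in 3 of 5 same-numbered pairs), and all 9 adjusted p were 0.9998 by edgeR. The unadjusted 95% interval ran from -0.49 to 0.48 for Mag, the narrowest in this fit, and from -0.89 to 0.99 for Opalin; with the replicate number as a block that of Mag was -0.29 to 0.29. Several of these signs turned under other settings.

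**Figure D5:**
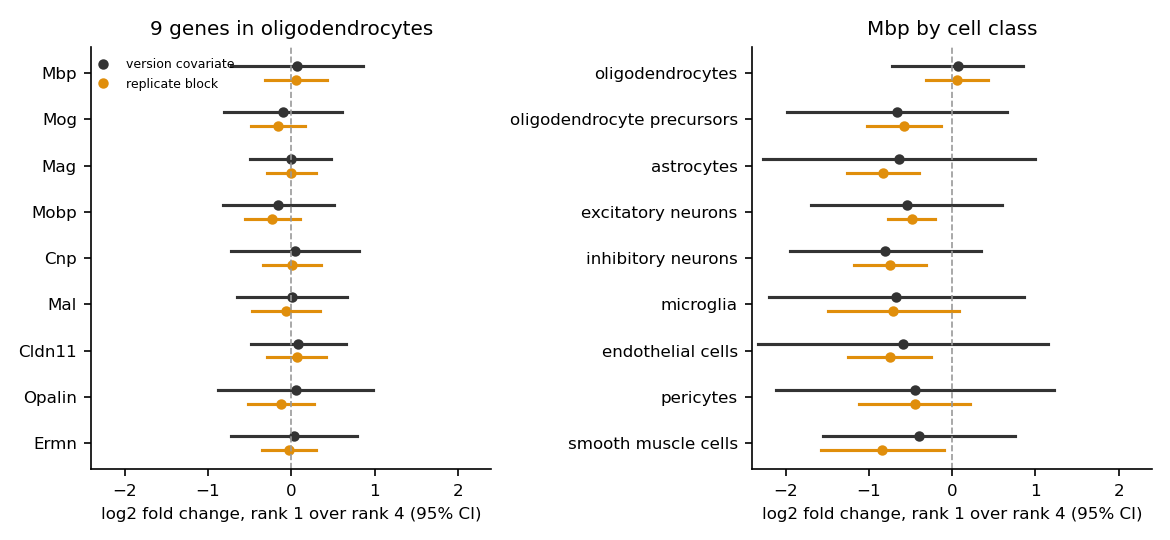
Log2 fold change of rank 1 over rank 4 with its 95% interval, for the 9 genes in oligodendrocytes (left) and for Mbp in each tested class (right), with the version covariate (black) or the replicate block (orange). The values on the left lie around 0, and those of Mbp outside the oligodendrocytes lie below 0 with intervals that include 0 under the version covariate; under the block the unadjusted intervals of 6 classes exclude 0, and none of these passed after adjustment.

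The share of lineage cells (precursors, committed precursors and oligodendrocytes) that were oligodendrocytes was 29.1%, 10.9%, 29.2%, 19.7% and 58.7% in rank 1 and 12.4%, 20.3%, 42.8%, 49.3% and 41.5% in rank 4. The means were 29.5% ± 18.0 and 33.3% ± 15.96 (SD, n = 5 per rank), and a two-sided exact permutation test over all 252 ways to divide the libraries gave p = 0.730. The groups overlapped, and the difference turned to 3.89 percentage points higher in rank 1 under a stricter cell filter. In whole libraries, where fewer cells of a type and less RNA per cell cannot be told apart, all 9 genes had a negative difference, from -0.09 (Mag) to -0.56 (Mobp) on the log2 scale. None passed among 14904 genes tested, of which 0 (0%) passed by edgeR, 488 had an unadjusted p under 0.05, and DESeq2 passed 0. Within version 4.0.0, 7 of the 9 turned above 0.

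Outside the oligodendrocytes Mbp had a negative difference in every class tested. It was -0.80 in inhibitory neurons, -0.67 in microglia, -0.66 in oligodendrocyte precursors, -0.64 in astrocytes, -0.59 in endothelial cells, -0.55 in excitatory neurons, -0.45 in pericytes and -0.40 in smooth muscle cells, with standard errors of 0.52 to 0.80. No gene passed in any of these classes by edgeR (0% of 1491 to 12405 genes tested, 19 to 451 of them with an unadjusted p under 0.05), while DESeq2 passed 1 gene in smooth muscle cells and 0 in the others.
Mbp in astrocytes was 367, 18.9, 61.5, 37.9 and 321 CPM in rank 1 and 716, 39.7, 176, 188 and 181 CPM in rank 4. It was lower in rank 1 in 4 of 5 same-numbered pairs, and the ranks overlapped. Without rank 4 replicate 1 the difference for Mbp was 0.37 in pericytes, 0.35 in precursors, 0.20 in astrocytes, 0.16 in endothelial cells, 0.15 in excitatory neurons, 0.04 in inhibitory neurons and 0.03 in microglia, all above 0, with adjusted p of 0.911 to 0.9999 by edgeR. Smooth muscle cells of that library were too few to enter.
With the replicate number as a block in place of version, 0 of the 9 genes passed in any class, though 52 of 10689 genes passed in astrocytes (0.486%) and 68 of 12405 in excitatory neurons (0.548%). The share was 0.805% in smooth muscle cells, 0.562% in endothelial cells, 0.0667% in inhibitory neurons, 0.0548% in the mature oligodendrocytes alone, 0.027% in oligodendrocyte precursors and 0.00671% in whole libraries, and 0% elsewhere. The nearest was Mbp in astrocytes at -0.83 (SE 0.21, adjusted p = 0.0571 by edgeR). Mog in astrocytes was at 0.82 in the same fit (SE 0.27, adjusted p = 0.139), in the opposite direction. Committed precursors were not tested, as only 2 rank 1 libraries held 20 of them.

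The genes around the 9 were taken from 4 lists. Of 31 other proteins of myelin and the paranode, 24 were highest in oligodendrocytes, 7 in committed precursors and 0 in precursors, among the 3 lineage classes. Enpp6, a phosphodiesterase of newly formed cells, was at a mean of 2.04 CPM in precursors, 841 CPM in committed precursors and 97.7 CPM in oligodendrocytes. Of 22 genes of myelin lipid synthesis, 13 were highest in oligodendrocytes and 9 in committed precursors, with Ugt8a, the galactosyltransferase that makes cerebroside, at 98.7, 611 and 999 CPM in the same order.
Of 14 regulators that promote the programme, 5 were highest in precursors, 5 in committed precursors and 4 in oligodendrocytes. Myrf, the factor whose site is marked in the Cnp and Mag windows, was at 24.1, 141 and 170 CPM over the 3 classes, and Olig1 at 2016, 878 and 765 CPM. Of 12 regulators that hold back myelination, 9 were highest in precursors and 0 in oligodendrocytes, with the Notch target Hes5 at 1024, 35.8 and 23.2 CPM. Enpp6 and Ugt8a served as markers for naming the classes, so these levels are a description.
By rank, no gene of the 4 lists passed in oligodendrocytes or precursors in edgeR (0% of genes tested in either class). In oligodendrocytes 30 of the 31 myelin proteins were tested, with 15 above and 15 below 0 and a median of 0.01. The smallest unadjusted p there belonged to Gjc3, a connexin, at 0.64 (SE 0.26, adjusted p = 0.9998), followed by Pmp22 at -0.53 and the actin-severing Gsn at 0.40. In precursors it belonged to Jam3, a junction protein, at 0.43 (SE 0.17, adjusted p = 0.999), followed by Hes1 at 0.47. The 11 tested regulators that hold back myelination had a median of 0.24 in precursors, 9 above and 2 below 0, beside -0.02 over all 7410 genes tested, and 0 of them had an unadjusted p under 0.05 (2 with the replicate number as a block, none passing the adjusted threshold).

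The genes most like the 9 were those whose level over the 12 named classes correlated best with the mean of the 9, among 8130 genes that reached 50 CPM in their highest class. They included Ptgds (r = 0.98), Tmem125 (0.97), Tnni1 (0.97), Nkx6-2 (0.96), Tmem88b (0.95), Lpar1 (0.94), Nipal4 (0.94) and Desi1 (0.93). The classes share libraries and depth, so these values only describe. Each of the 9 was set against the mean of the other 8 in the same way, which gave r = 0.99 for Mobp, 0.98 for Mbp and for Cldn11, 0.93 for Cnp and 0.80 for Mal, the lowest.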

How the data were processed

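Single-cell RNA libraries of mouse medial prefrontal cortex, 5 per rank, were analysed from raw UMI counts per gene and barcode, deposited by the authors as sparse matrices. The submitters' processing notes name Cell Ranger 4.0.0 and mm10, and per the file headers replicates 1 to 3 carry version 3.1.0. The settings of cell calling and counting are not given in the sources used here. Positions come from GENCODE M21, which held 100% of the 30406 shared genes.

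Barcodes with under 500 genes or over 15% mitochondrial UMIs were dropped. Scrublet called doublets per library in scanpy 1.11.5 (3084 barcodes; in replicate 1 of both ranks the caller had not worked and a score of 0.248 was set). Clustering (2000 variable genes, 30 components, 15 neighbours, Leiden, resolution 1, igraph 0.11.9, seed 1) and naming left out the 9 genes, and 3 of 23 clusters stayed unnamed. A level is the gene's UMIs scaled to 1000000 UMIs of the class in the library (CPM), for libraries with at least 20 cells of it.

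Rank was tested on counts summed per library and class with edgeR 4.0.16 (R 4.3.3), quasi-likelihood, version as covariate, filterByExpr, at least 3 libraries per rank, and an adjusted p of 0.05 (Benjamini-Hochberg over all genes of a class). Standard errors are the log2 difference over the square root of F, and p-values measure the spread between pooled libraries. On simulated data for oligodendrocytes (4228 genes) the test recovered 60% of genes changed by 1 on the log2 scale and 99.0% of those changed by 2. The simulation gave every gene the same dispersion and held no difference between versions or replicates. The real libraries differed by version, so these rates may not hold for the 9 genes. Same-numbered libraries deviated together from their rank means in oligodendrocytes (r = 0.51 to 0.79, and 0.04 to 0.70 once version means were also removed). Every pair's r from the rank means was above 0.1, the criterion for treating the numbers as pairs; the labels do not state a pairing. The same number was the best match for 2 of 5 pairs (3 of 5 without version means). Alternatives were the replicate block, no covariate, DESeq2 1.42.0, its size factors, no filter, each library left out, each version alone, 50 cells, a stricter cell filter (1000 genes, 10%), doublets kept, resolutions 0.5 and 2, the 9 genes kept in clustering, and depths of 500 and 2000 UMIs.

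The 9 genes and the lists were chosen with earlier results of these data known. The text names all 9 genes, the 3 genes of the lists with the smallest unadjusted p in oligodendrocytes and in precursors, the 10 most alike genes, and a few list genes chosen after their levels were seen (Enpp6, Ugt8a, Myrf, Olig1, Hes5). Some genes that this rule selects are not reported here.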

Additional observations from a re-analysis of the deposited data

Results flagged for a closer look

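In 50 groups of 5 libraries, 7 held a library whose gap to its nearest neighbour, divided by the range of the group, exceeded 0.710; chance alone flags about 1 in 20 groups. Mbp outside the lineage was such a value in rank 4 replicate 1, at 716 CPM in astrocytes (the next rank 4 library was at 188), 506 CPM in excitatory neurons (next 169) and 740 CPM in endothelial cells (next 226). In whole libraries rank 4 replicate 3 stood apart for Mog at 126 CPM (next 56.8) and for Opalin at 125 CPM (next 50.2). Rank 1 replicate 5 stood apart in whole libraries for Mal at 507 CPM (next 156) and for Ermn at 116 CPM (next 36.5). Oligodendrocytes made up 42.8% of the lineage cells in rank 4 replicate 3 and 58.7% in rank 1 replicate 5, the latter the highest share of the 10 libraries; the part of these shares in the whole-library values was not tested.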

How the results depend on the processing

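No gene of the 9 passed by rank under any alternative run in any class or in whole libraries; adjusted p for the rank differences named in the text ran from 0.0571 to 1. Several differences changed sign (log2, rank 1 minus rank 4), and the cause was not tested. In oligodendrocytes these were Mag 7.02e-06, Mal -0.064, Opalin -0.12 and Ermn -0.025 under the replicate block, Mbp -0.037 and Cldn11 -0.086 with no covariate. They were Mbp -0.10, Cnp -0.13, Mal -0.16, Cldn11 -0.066, Opalin -0.16 and Ermn -0.15 with no filter on low counts. They were Mag 0.016 with DESeq2, Mag 0.013 with its size factors. They were Mbp -0.18, Mag 0.022, Mal -0.20, Cldn11 -0.18, Opalin -0.024 and Ermn -0.075 within version 3.1.0, Mog 0.10 within version 4.0.0. They were Mag 0.063 with doublets kept, Mal -0.0017 at resolution 2, Mal -0.012 at 0.5 and Mal -0.0027 with the 9 genes in clustering. Leaving out each library gave Mbp -0.11 to 0.24, Mog -0.30 to 0.083, Mag -0.10 to 0.052, Mobp -0.31 to 0.0071, Cnp -0.13 to 0.20, Mal -0.15 to 0.16, Cldn11 -0.048 to 0.18, Opalin -0.21 to 0.28 and Ermn -0.13 to 0.23. In whole libraries, version 4.0.0 alone gave Mbp 0.19, Mog 0.11, Mag 0.17, Mobp 0.041, Cldn11 0.36, Opalin 0.039 and Ermn 0.064, and leaving out each library gave Mag -0.40 to 0.13, Cnp -0.72 to 0.022, Cldn11 -0.59 to 0.064 and Ermn -1.03 to 0.0064. For Mbp, version 4.0.0 alone gave 0.18 in precursors and 0.28 in pericytes, and leaving out each library gave -1.48 to 0.027 in microglia, -1.20 to 0.37 in pericytes, -1.42 to 0.20 in astrocytes, -1.37 to 0.041 in inhibitory neurons, -1.22 to 0.35 in oligodendrocyte precursors, -1.40 to 0.16 in endothelial cells and -0.98 to 0.15 in excitatory neurons. The replicate block changed no call for the 9 genes. Over all genes, it passed 68 genes in excitatory neurons, 52 in astrocytes, 45 in endothelial cells, 12 in smooth muscle, 6 in inhibitory neurons, 2 in oligodendrocyte precursors, 2 in the mature stage of oligodendrocytes and 1 in whole libraries, against 0 in each with the version covariate. Every other setting run passed at most 9 genes in any class (5 in oligodendrocytes within version 4.0.0). Stricter cells and 50 cells per library left too few libraries for oligodendrocytes to be fitted.

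The difference in the oligodendrocyte share of the lineage, -3.74 percentage points, was 3.89 under the stricter filter, -11.04 to 0.92 without each library (above 0 without rank 1 replicate 2 or rank 4 replicate 4), and p = 0.730 became 0.75 when signs were flipped within replicate numbers (replicate block, exact). By header version, 3 to 7 of the 9 genes passed without each library and 7 without both replicates 1, against 4, while 18.3% to 48.6% and 63.5% of all genes did, against 36%; Ermn ran from -0.20 to 0.17 and was -0.33 without both replicates 1. The share of astrocytes with a UMI of Mbp, 20.1% at 1000 UMIs, was 12.2% at 500, 34.0% at 2000 and 28.5% unthinned, since it rises with depth. For Mbp in astrocytes, r was -0.20 to -0.40 under the cell filters, doublets and clustering tried, against -0.23. At resolution 2 the levels relative to mature cells kept their side of 100% in all 9 genes at both stages (Mbp 70.4% in committed precursors, Ermn 77.3% and Mag 387% in myelin-forming cells). The committed and myelin-forming stages rest on few cells, 283 and 123.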

Other observations

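An unnamed cluster of 1587 cells led by Oxt and Avp, genes of neuropeptides, had the highest Mbp level of any cluster outside the lineage, 950 ± 722 CPM over the 6 libraries with at least 20 of its cells (SD, range 146 to 1797 CPM), and Mobp stood at 226 ± 152 CPM there. At 1000 UMIs per cell 53.7% of its cells had a UMI of Mbp and 4.21% one of Mog. A second unnamed cluster, 206 cells led by Slc6a13 and Dcn, held Mal at 500.2 ± 256 CPM over 4 libraries (SD, range 249.8 to 858 CPM), beside 225 CPM of Mbp and 32.1 CPM of Mog. At 1000 UMIs 23.2% of its cells had a UMI of Mal, between the 27.8% of endothelial cells and the 7.59% of pericytes. Its mean Mal level in CPM was above the 360 CPM of endothelial cells, with overlapping libraries.

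Barcodes left out as doublets or by the filters held between 19.9% (Cnp) and 28.2% (Mag) of a gene's UMIs, as a mean over 10 libraries, and the oligodendrocytes kept held between 37.7% (Mbp) and 57.4% (Mog). The lowest share in a single library was 3.11%, for Mbp in the oligodendrocytes.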
